A study of Mus musculus with 2 samples.

Results

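The lysosomal cathepsins were compared between macrophages resident in the mouse peritoneal cavity and macrophages drawn into it by thioglycollate. All 10 listed genes were found on the array: Ctsa, Ctsb, Ctsc, Ctsd, Ctsf, Ctsh, Ctsk, Ctsl, Ctss and Ctsz. They were taken as every probe set that the platform annotation assigns to a listed gene alone, which gave 22 of the array's 45101 probe sets and 10 of its 18193 named genes. No probe set named a listed gene together with another gene. A probe set is a group of short probes whose combined signal is 1 value per array.

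The resident group came from C57BL/6J mice given no treatment. The elicited group came from C57BL/6J mice that had received 1 mL of 3% thioglycollate, a sterile irritant broth, in the peritoneal cavity 3 days earlier. Mice of both groups were 8 weeks old, and in both the cells that had adhered to a dish within 2 h were kept and non-adherent cells were washed away. The series description speaks of overnight culture instead, so the time in culture is uncertain. Each group was 1 array, and the sources used here do not say how many mice were pooled for it. There is therefore no replicate, no replicate error and no test between the groups. Adherence is the only selection described, so an array can hold RNA of other adherent cells. In such bulk RNA, a change in the share of a cell type and a change of RNA per cell cannot be told apart.

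Cathepsins are the main proteases of the lysosome, the acidic compartment where macrophages break down what they engulf. Most are cysteine proteases related to papain (Ctsb, Ctsc, Ctsf, Ctsh, Ctsk, Ctsl, Ctss and Ctsz), while Ctsd is an aspartic protease and Ctsa a serine carboxypeptidase. They are made as inactive precursors, tagged with mannose 6-phosphate, carried to the lysosome and activated there by acid and by cutting, and cystatins restrain those that leak out. In macrophages they digest cargo, trim the invariant chain of MHC class II and, when secreted, degrade matrix.

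Signals are linear intensities as deposited, and differences are log2 of elicited over resident signal. A background floor of 82.2 was set from olfactory, vomeronasal and taste receptor and keratin-associated protein genes, which macrophages are not thought to use. The same genes gave 92.7 on the resident array alone and 67.9 on the elicited array alone. Each gene was read from its brightest probe set, and a difference of 2-fold or more was counted. The only measurable spread, that between probe sets of 1 gene, had an SD of 0.48 on the log2 scale (1.4-fold, 4465 genes). Of 11499 genes above the floor on at least 1 array, 40.5% of those past the 2-fold threshold were higher in elicited cells. That share was 65.8% when array medians were made equal, 58.2% after quantile normalization, 50.0% with a loess trend taken out and 21.1% when scaled to the spiked hybridisation controls. As deposited the median over all genes was a log2 ratio of -0.03, against 0.25, 0.16, 0.07 and -0.31 under these scalings. All 8 macrophage markers were above the floor on both arrays, among them Csf1r (36845 resident, 32074 elicited), Cd68 (22834 and 40130) and Lyz2 (31855 and 39953). As deposited 5 of the 8 were lower in elicited cells, with log2 ratios of -0.20 for Csf1r (0.11 with equal medians), -0.82 for Adgre1, -0.87 for Mertk, -1.45 for Cd14 and -1.58 for Itgam. Adgre1 passed 2-fold lower with quantile normalization, loess and the hybridisation controls, and Mertk with loess and the hybridisation controls.

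Cathepsin K was the exception among the cathepsins, with a signal 40.9-fold higher on the elicited array. Cathepsin L was 2.51-fold higher, cathepsin F 4.7-fold lower, and the remaining 7 genes were within 2-fold. Of these 7, cathepsins A, B, D, H, S and Z were higher as deposited and cathepsin C was lower. All 10 genes were above the floor on both arrays. The counts of 2 higher and 1 lower among 10 stand beside a background of 8.04% of all genes that were higher by 2-fold or more and 11.8% that were lower by as much. The median log2 ratio of the 10 genes was 0.46.

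**Figure D1:**
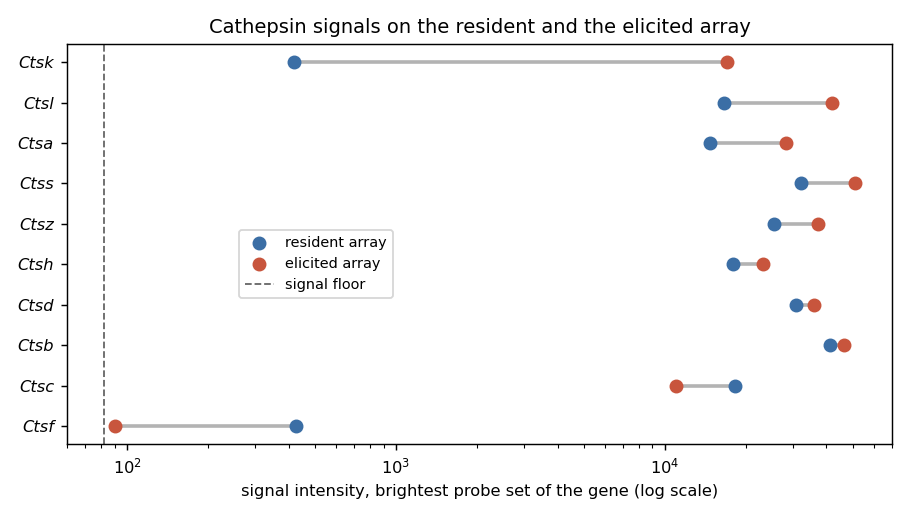
Signal intensity (horizontal log axis) of the brightest probe set of each cathepsin gene on the 1 resident and the 1 elicited array. The points are single values without error, joined by a line for each gene, and the dashed line is the floor of 82.2. Ctsk moves from 419 to 17127, Ctsf from 426 to 90.6, and the other genes lie at 11040 or above on both arrays.

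The positive median has to be read against signal strength, because bright genes in general had higher ratios on the elicited array. In the 1150 genes with the highest mean signal the median log2 ratio was 0.40, and 868 of them (75.5%) were higher on the elicited array. Among these 1150 genes 12.8% were higher by 2-fold or more and 4.26% lower by as much. They held 8 of the cathepsins, all but Ctsk and Ctsf, with a median of 0.46. Of these 8, 7 were higher, 1 (Ctsl) by more than 2-fold (12.5%), and Ctsc was lower by less than 2-fold. The moderate differences of the bright cathepsins were thus of the size seen in genes of like signal. With the signal trend removed by loess the median of the 10 genes was 0.01, with quantile normalization it was 0.12, and on the hybridisation controls 0.15. With equal medians it was 0.77.

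**Figure D2:**
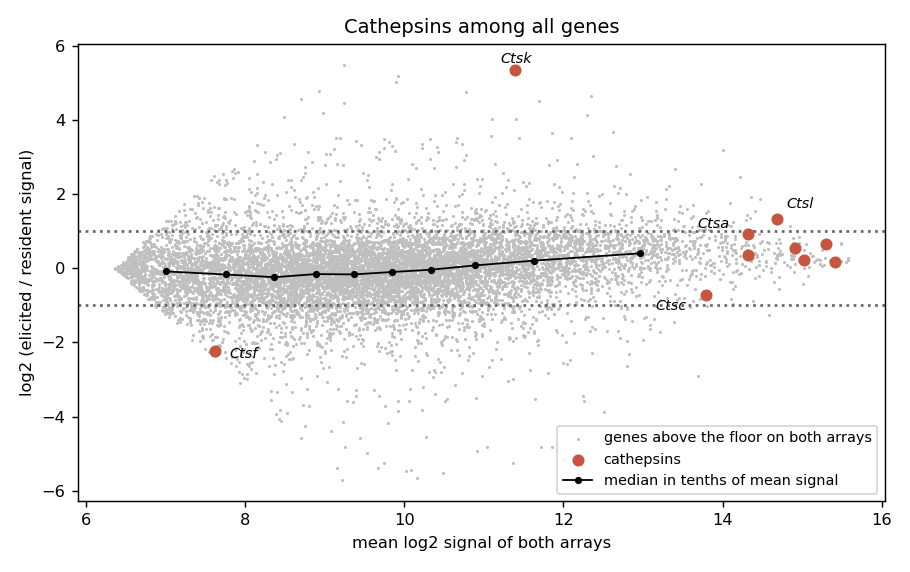
Log2 ratio of elicited over resident signal (vertical axis) against mean log2 signal (horizontal axis) for 9820 genes whose signal passed the floor on both arrays, with the 10 cathepsins in red and a running median over equal-sized classes of signal as a black line. Dotted lines mark 2-fold. Ctsk (5.35) lies far above the cloud and Ctsf (-2.23) below it, while the other 8 lie at its bright end.

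Cathepsin K is a strong collagenase, best known from the bone-resorbing osteoclast and also made by activated fibroblasts. Its single probe set read 419 in resident and 17127 in elicited macrophages. The difference of 5.35 on the log2 scale was the 4th highest of the 11499 genes. The resident signal was above every background floor used, including the 99th percentile of 174, so the ratio is a measured value and not a bound. Over the 4 other scalings it ranged from 5.05 to 5.66. No second probe set names Ctsk alone, so the value has no check from another sequence.

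The genes closest to Ctsk in ratio, over the 2 arrays and with log2 ratio as the measure of likeness, were Sparc, Cd200 and Col1a2. Sparc, a matrix glycoprotein, went from 90.2 to 4070 and differed from Ctsk by 0.14 in log2 ratio. That resident signal is under the 92.7 of the resident background alone, and the 3 Sparc probe sets ranged from 0.59 to 5.50. Cd200, a membrane ligand that restrains myeloid cells, went from 161 to 5834 (a difference from Ctsk of 0.18). Col1a2, a chain of type I collagen, went from 166 to 5452 (0.32).

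Sparc and Col1a2 are also fibroblast markers, and the list of mesothelial and fibroblast markers moved with Ctsk. Of its 14 genes, 11 passed the floor, all 11 in elicited and 4 in resident cells. Of these 11, 9 were higher by 2-fold or more and none lower, with a median log2 ratio of 2.30 that holds dim genes at their bound. The 14 genes summed to a signal of 839 in resident and 16648 in elicited cells. Col3a1 went from 92.3, also under the 92.7 of the resident background, to 2555, and Dcn, the matrix proteoglycan decorin, was at least 23.7-fold higher. Lum, Pdgfrb and Msln stayed at background on both arrays. What part these cells have in the Ctsk signal was not tested.

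Other genes of the osteoclast, whose products acidify and degrade bone beside cathepsin K, were divided. Of 14, 11 passed the floor on both arrays, 4 of them higher and 3 lower by 2-fold or more. The median log2 ratio was 0.30, and -0.01 on the hybridisation controls. Atp6v0d2, a proton pump subunit, read 1776 in resident and 22596 in elicited cells (12.7-fold), and its 2 probe sets read 3.67 and 3.69 on the log2 scale. Acp5, the tartrate-resistant acid phosphatase, went from 1109 to 5772 (5.2-fold) and Tcirg1, another pump subunit, from 2557 to 6755 (2.64-fold). Itgb3, an integrin chain, went from 93.5 to 196 (2.09-fold). That resident signal lies just above the 92.7 of the resident background alone and below the 99th percentile floor of 174. Nfatc1, the transcription factor that drives osteoclast formation, was instead lower (1895 and 729, 2.6-fold), as were the fusion gene Dcstamp (497 and 224) and the gelatinase gene Mmp9 (558 and 171). Calcr, Oscar and Ocstamp, which mark formed osteoclasts, stayed at background on both. The direction of these genes was the same under all 4 other scalings, but Itgb3 was within 2-fold on the hybridisation controls (0.76) and Dcstamp with equal medians (-0.84), quantile normalization (-0.73) and loess (-0.78). Atp6v0d2, Acp5 and Tcirg1 thus shared the direction of Ctsk, and Nfatc1 had the opposite one.

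Cathepsin S, the protease that macrophages and dendritic cells use to cut the last piece of the invariant chain, is the neighbour of Ctsk on chromosome 3, with no other coding gene between them. Its 1 probe set read 32037 in resident and 51026 in elicited macrophages, 1.59-fold higher. The log2 ratio of Ctss stayed within 2-fold under the other scalings, from 0.17 with loess to 0.98 with equal medians. Neighbouring genes thus differed in log2 ratio by 5.35 and 0.67. The sequences before both starts are shown to set the pair side by side, as the 250 bases upstream of the annotated start from RefSeq (GRCm38.p6, plus strand, chr3:95498960-95499209 for Ctsk and chr3:95526536-95526785 for Ctss). Capitals mark the PU box GAGGAA, the core that the myeloid factor PU.1 binds, on either strand.
Ctsk: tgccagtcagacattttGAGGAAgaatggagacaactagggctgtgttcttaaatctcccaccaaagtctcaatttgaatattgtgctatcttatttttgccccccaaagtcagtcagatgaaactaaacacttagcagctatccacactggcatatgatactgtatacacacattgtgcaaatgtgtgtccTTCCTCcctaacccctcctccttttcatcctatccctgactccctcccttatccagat
Ctss: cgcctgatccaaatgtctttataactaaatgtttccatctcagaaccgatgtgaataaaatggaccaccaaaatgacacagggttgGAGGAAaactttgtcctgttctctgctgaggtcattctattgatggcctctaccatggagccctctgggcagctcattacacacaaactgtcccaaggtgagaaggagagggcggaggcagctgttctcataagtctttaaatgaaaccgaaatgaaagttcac
The Ctsk stretch holds the PU box 2 times, beginning 233 and 58 bases before the start, and the Ctss stretch holds it 1 time, 164 bases before. Another begins at the Ctss start itself, outside the stretch shown. A 6-base motif is common: 28.3% of all 32851 windows of 300 bases in the RefSeq promoter table held GAGGAA on either strand. These matches are letters in a window, not measured binding.

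Most MHC class II genes, whose loading cathepsins S and L serve, had a lower signal in elicited cells. Of 10 measured class II loading genes, 8 were lower by 2-fold or more and none higher (median log2 ratio -1.53). Cd74, the invariant chain that cathepsin S trims, went from 17283 to 5261 (3.28-fold lower). H2-Ob, the chain that restrains peptide exchange, was at least 27.6-fold lower. Its partner H2-Oa was lower by at least 9.74-fold and the exchange factor H2-DMb2 by 9.6-fold. Ciita, the activator of class II transcription, was lower by at least 4.07-fold, though its 3 probe sets ranged from -2.47 to -0.05 on the log2 scale. Ifi30, the lysosomal thiol reductase that unfolds antigen, stayed at 18859 and 17898. Most markers of B cells moved with this list, with 6 of 8 lower by 2-fold or more and a sum of 24482 in resident and 4926 in elicited cells. The other 2, Cd22 (2269 and 4078) and Pax5 (141 and 159), were higher as deposited, and most of the elicited sum was Cd22. The immunoglobulin gene Ighm was 50.5-fold and Ms4a1, the gene of CD20, 38.0-fold lower. The 4 Ighm probe sets above the floor ranged from -5.66 to -0.29 on the log2 scale. Of the dendritic cell markers, 3 of the 4 that passed the floor were also lower by 2-fold or more. The 4th, Zbtb46 (145 and 37.8), was lower by at least 1.77-fold. The 7 genes summed to 2842 in resident and 355 in elicited cells, of which Btla alone gave 1474 and 77.5. Btla was lower by at least 17.9-fold, Cd209a by at least 9.42-fold and Ccr7 by at least 4.26-fold, and Flt3, Xcr1 and Itgae stayed at background on both. The part of these cells in the class II signals was not tested.

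Cathepsin L, a broad endopeptidase, read 16679 in resident and 41885 in elicited macrophages (2.51-fold, log2 1.33). Its dimmer probe set gave 189 and 1168, a log2 ratio of 2.63. Both probe sets thus passed 2-fold as deposited, but the brighter one was at 0.99 with quantile normalization and 0.87 with loess, under the 2-fold threshold. On the hybridisation controls it was 1.02.

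Cathepsin B, which cuts internally and also removes dipeptides, had the widest range between probe sets among the genes that were higher. Its brightest probe set read 41307 in resident and 46315 in elicited macrophages, 1.12-fold higher. The next in brightness were 33651 and 48131 (1.43-fold), then 11060 and 25415 (2.3-fold), then 4475 and 16114 (3.6-fold). The dimmest probe set had 326 and 381 (1.17-fold). All 5 were higher as deposited, with log2 ratios from 0.17 to 1.85 and an SD of 0.72, so that 2 passed 2-fold and 3 did not. The value of 1.12-fold for Ctsb therefore depends on which probe set is read, and the brightest one turned to -0.14 with quantile normalization and on the hybridisation controls and to -0.34 with loess.

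Cathepsin F, a less studied papain-like protease that can also trim the invariant chain, was dim. It read 426 in resident and 90.6 in elicited macrophages, a log2 difference of -2.23 (4.7-fold lower). The elicited value lies just above the floor of 82.2 and above the 67.9 of the elicited background alone, but below the 92.7 of the resident background. With the floor at the 99th percentile the log2 difference was -1.29. The gene's other probe set (79.0 and 8.32) stayed at background on both.

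**Figure D3:**
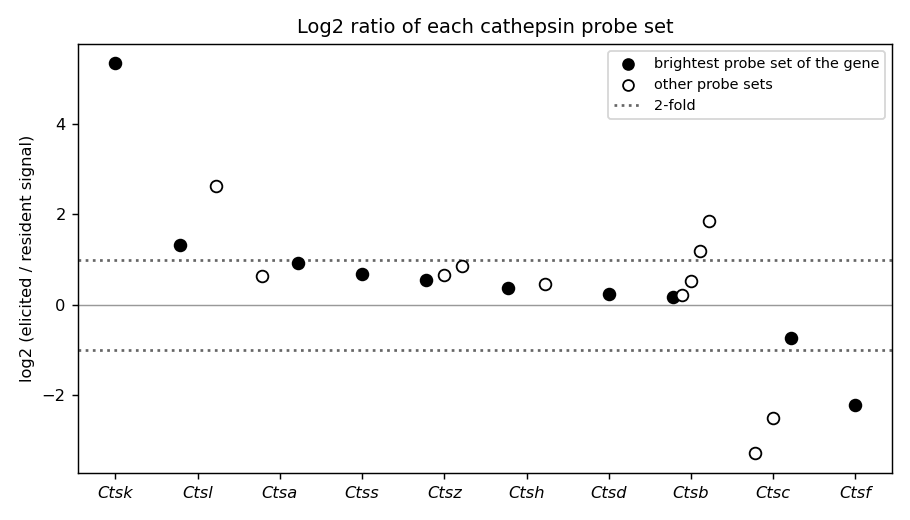
Log2 ratio of elicited over resident signal (vertical axis) for the 21 cathepsin probe sets above the floor on at least 1 array, by gene. Filled points are the brightest probe set of each gene and dotted lines mark 2-fold. Of the 21 probe sets 17 are higher and 4 lower on the elicited array, and the points of Ctsc and Ctsb span the widest ranges.

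The cathepsins that act from the ends of proteins differed in direction. Cathepsin C, the dipeptidyl peptidase that activates the granule serine proteases of neutrophils, mast cells and cytotoxic lymphocytes, went from 18288 to 11040 (1.66-fold lower, log2 -0.73). Its other 2 probe sets were much lower still, from 1244 to 126 (9.84-fold) and from 469 to 61.3 (at least 5.7-fold). All 3 probe sets were lower, and the gene as read from the brightest one passed 2-fold under quantile normalization (-1.10), loess (-1.13) and the hybridisation controls (-1.03). Read from the median of its probe sets the log2 ratio was -2.51, which is a bound because that probe set was below the floor on the elicited array. Cathepsin H, an aminopeptidase, went from 18004 to 23251 (1.29-fold), and its second probe set from 8706 to 11983 (1.38-fold). Cathepsin Z, a carboxypeptidase, went from 25430 to 37329 (1.47-fold), and its 3 probe sets agreed within 0.55 to 0.86 on the log2 scale. The ratio of Ctsz was 0.08 after loess and that of Ctsh turned to -0.07 with loess and -0.01 with quantile normalization.

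Genes of the serine proteases that cathepsin C activates were found on the resident array alone. Of 11, 5 were above the floor there and none on the elicited array. Cma1, a mast cell chymase, read 604 in resident cells and was lower by at least 7.35-fold in elicited ones. For Prtn3, proteinase 3, the bound was at least 3.6-fold. The mast cell proteases Mcpt4 and Tpsb2 were lower by at least 3.24-fold and 2.09-fold, and Tpsab1 by at least 1.55-fold. Elane, Ctsg, Gzma, Gzmb, Gzmk and Mcpt1 stayed at background on both. Mast cell markers moved with Ctsc: 6 of 8 passed the floor, 5 of them were lower by 2-fold or more, and the 8 summed to 2705 and 250. The carboxypeptidase gene Cpa3 was lower by at least 13.6-fold. The 2 lists share chymase and tryptase genes, and the mast cell markers Hdc and Ms4a2 stayed at background on both. The part of mast cells in the Ctsc signal was not tested.

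Cathepsin D, the aspartic endopeptidase, was read by 1 probe set, with 30734 in resident and 36034 in elicited macrophages (1.17-fold). Its log2 ratio of 0.23 turned to -0.07 with quantile normalization, -0.08 on the hybridisation controls and -0.25 with loess, so its direction depended on the scaling. Cathepsin A, the serine carboxypeptidase that also shields glycosidases in a complex, went from 14810 to 28174 (1.90-fold, log2 0.93). Its second probe set, at 199 and 310, had a log2 ratio of 0.64. With equal medians Ctsa passed 2-fold (1.24), and with loess it was 0.49. Of the enzymes held in its complex, Galns was 4.11-fold higher (1186 and 4873), and Neu1 (1821 and 2086) and Glb1 (3470 and 3783) were within 2-fold. Galns passed 2-fold under all 4 other scalings, while Glb1 turned to -0.06, -0.09 and -0.18 with quantile normalization, loess and the hybridisation controls.

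Lysosomal genes commonly carry an E-box with the letters CACGTG, the core of the element that the MiT/TFE factors read. It was searched in the RefSeq promoter windows of the 8 cathepsins that the table holds (GRCm38.p6, 250 bases before to 50 after an annotated start). It was present for Ctsa, Ctsd, Ctsf and Ctsl and not in these windows of Ctsc, Ctsk, Ctss and Ctsz. Over all windows of this length, 7.15% held it, and 8.09% of the 27025 genes in the promoter table held it in at least 1 window. The PU box was present in windows of Ctsc, Ctsk and Ctss, so none of the 8 had both motifs. These 3 of 8 stand beside 31.3% of all genes in the promoter table with a PU box in at least 1 window. The stretches around the E-box are shown for the genes that have it, in the sense of the gene, with the motif in capitals. They lie at chr7:142387903-142387942 (minus strand, Ctsd), chr13:64370734-64370770 (minus, Ctsl), chr19:4855069-4855108 (plus, Ctsf) and chr2:164833761-164833800 (plus, Ctsa, around a downstream start).
Ctsd: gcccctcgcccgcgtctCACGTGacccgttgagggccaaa
Ctsl: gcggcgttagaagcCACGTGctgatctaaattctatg
Ctsf: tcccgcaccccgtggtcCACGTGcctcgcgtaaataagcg
Ctsa: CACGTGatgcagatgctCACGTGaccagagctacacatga
The E-box shown begins 98 bases before the start for Ctsd, 236 for Ctsl and 79 for Ctsf. Ctsd has another 245 bases before its start, outside the stretch shown, and Ctsa has 2 copies, beginning 12 bases before and 5 bases after. The 4 genes with an E-box spanned log2 ratios from -2.23 (Ctsf) to 1.33 (Ctsl), so they had no common direction. The 3 with a PU box spanned -0.73 (Ctsc) to 5.35 (Ctsk).

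The MiT/TFE factors themselves were all above the floor on both arrays. Tfeb went from 775 to 1281 (1.65-fold higher), Tfe3 from 2453 to 1788, Mitf from 6144 to 4066 and Tfec from 2127 to 886. Tfec, at 2.4-fold lower, was the 1 of 4 past the threshold. With equal medians Tfec was within 2-fold (-0.96) and Tfeb was past it (1.03). Their median log2 ratio was -0.53.

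The list of cathepsin inhibitors held cystatins, stefins, Ctla2a and Ctla2b beside serpins, and only serpins were higher by 2-fold or more. Among the others above the floor, Cst3 and Cstb were within 2-fold, and Cst7, Ctla2a and Ctla2b were lower. Whether the serpins act on the cathepsins compared here was not tested. Of 13 measured genes in the list 9 passed the floor, 2 of them higher and 3 lower by 2-fold or more. Their median log2 ratio of -0.03 was positive with equal medians (0.27), quantile normalization (0.18) and loess (0.02) and -0.34 on the hybridisation controls. The broad inhibitors were bright on both arrays: Cst3, the secreted cystatin C, went from 24026 to 38389 (1.60-fold) and Cstb, the cytosolic stefin B, from 28089 to 39729 (1.41-fold). Cst7, cystatin F, which is sorted to lysosomes and restrains cathepsin C, went from 496 to below the floor and was lower by at least 6.03-fold. Ctla2a (1887 and 98.3, 19.2-fold) and Ctla2b (5042 and 424, 11.9-fold), which resemble the propeptide of cathepsin L, were lower too. These are near-identical copies, so their probe sets may read each other. Serpinb6a, a serpin of the cytosol, was 3.19-fold higher (6349 and 20223) and Serpinb6b 5.84-fold higher (87.5 and 511), the latter from a resident signal under 92.7.

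**Figure D4:**
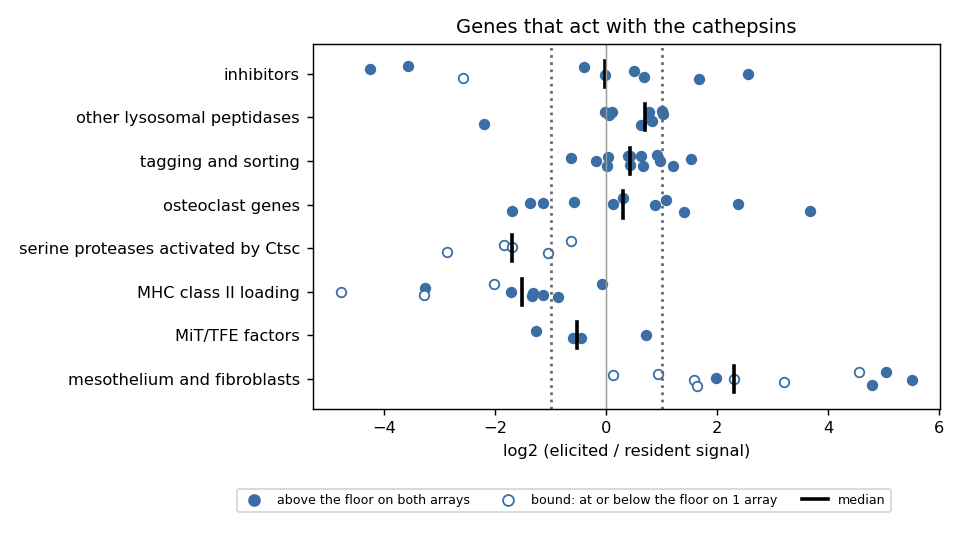
Log2 ratio of elicited over resident signal (horizontal axis) for single genes of 8 lists related to the cathepsins. Each point is 1 gene above the floor on at least 1 array, open points are bounds held at the floor on 1 array, black bars are list medians and dotted lines mark 2-fold. The medians run from -1.70 for the serine proteases activated by cathepsin C to 2.30 for mesothelial and fibroblast markers.

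The machinery that delivers cathepsins to the lysosome was mostly within 2-fold. Of 14 tagging and sorting genes, 12 were higher as deposited, 2 of them by 2-fold or more, and none was lower by as much, with a median log2 ratio of 0.42. Gnptg, a subunit of the enzyme that makes the mannose 6-phosphate tag, went from 151 to 433 (2.88-fold). Vps29, a retromer subunit that recycles the sorting receptors, went from 5548 to 12729 (2.29-fold), though its 4 probe sets above the floor ranged from -1.05 to 1.20 and its brightest one was at 0.86 with quantile normalization and with loess. The receptors Igf2r (2141 and 4168) and M6pr (10184 and 13648) were within 2-fold, but Igf2r was at 1.11 on its other probe set and at 1.27 with equal medians. The median of this list was 0.11 on the hybridisation controls and 0.73 with equal medians, positive under each of the 4 scalings.

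Other lysosomal peptidases were mostly within 2-fold. Of 11, 10 were above the floor, 8 of them higher as deposited, 2 of them by 2-fold or more, 1 (Ctse) was lower by as much, and the list had a median log2 ratio of 0.69 (0.37 to 1.00 over the other scalings, 0.32 with the median over probe sets). Lgmn, the asparaginyl endopeptidase that cuts cathepsin precursors, went from 15266 to 30729 (2.01-fold). Dpp7 went from 4516 to 9127 (2.02-fold), but its 3 probe sets ranged from -0.25 to 1.02. Both were within 2-fold with quantile normalization (Lgmn 0.67, Dpp7 0.70), loess (0.57 and 0.70) and the hybridisation controls (0.70 and 0.71). Tpp1, a tripeptidyl peptidase, was 1.78-fold higher. Ctse, an aspartic protease of endosomes, had 955 and 208 (4.59-fold lower) on its brighter probe set, and 0.16 on the log2 scale on the other. The cysteine protease Ctso had 5371 and 5763. The 8 placental cathepsins (Ctsj, Ctsm, Ctsq, Ctsr, Cts3, Cts6, Cts7 and Cts8), which are close relatives of Ctsl, stayed at background on both.

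**Figure D5:**
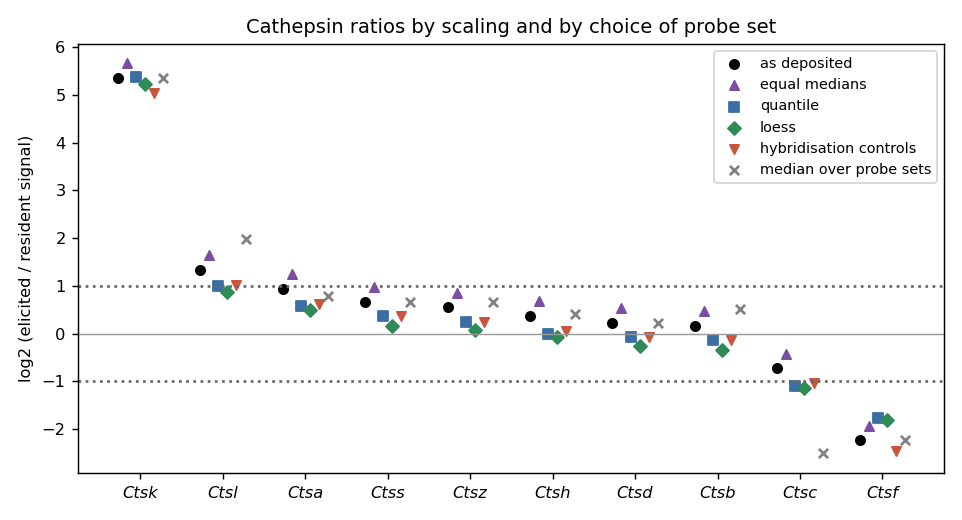
Log2 ratio of elicited over resident signal (vertical axis) of each cathepsin as deposited, under 4 other scalings and as the median over its probe sets. Dotted lines mark 2-fold. Ctsk stays between 5.05 and 5.66, Ctsf stays below -1, Ctsl and Ctsa cross 1, Ctsc crosses -1, and Ctsb, Ctsd and Ctsh cross 0.

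Across 11 alternatives in scaling, floor, probe set and filter, Ctsk stayed at least 2-fold higher and Ctsf at least 2-fold lower in all 11. Ctsl did so in 9. Ctsb, Ctsd, Ctsh, Ctss and Ctsz remained within 2-fold in all 11, Ctsa in 10 and Ctsc in 7. The floors, the pseudocounts, the filter and the rule without x or s probe sets left the bright cathepsins unchanged or nearly so.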

How the data were processed

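RNA of 1 resident and 1 elicited macrophage sample was measured on an Affymetrix mouse 3' expression array. The authors deposited 1 linear intensity for each probe set and array. MAS5 is the tool named in the submitters' processing notes, and its version, scaling target and detection calls are not stated in the sources used here. Trimmed by 2% at each end, both arrays had a mean of 500.0, and no further normalization was applied. Gene names came from the platform annotation, and 34741 of 34945 symbols were updated by gene ID to RefSeq (GRCm38.p6). The floor was the 95th percentile of 126 probe sets of silent families, and lower signals were raised to it, so a ratio against it is a bound ("at least"). Each gene was read from its probe set of highest mean log2 signal, and values at or below the floor are called background. Genes were described against 2-fold without a test, since each group had 1 array, and the number of arrays limits precision. The members and gene lists were chosen with earlier results of these data known. The text names all members, up to 4 genes per list with the largest ratios, and the 3 genes closest to Ctsk in ratio. Other list genes were named with their values in view. The ratio and floor calculations were checked on simulated data. Promoter letters and both motifs, chosen after the values were seen, come from RefSeq's table. The alternatives were 4 scalings (equal medians of probe sets above the floor, quantile, loess with span 0.4, and 9 hybridisation controls), 4 floors or pseudocounts, 2 probe set rules, a filter and 2 fold thresholds. Python 3.11.15, numpy 2.4.6, pandas 2.3.3, statsmodels 0.14.6 and matplotlib 3.10.9 were used.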

Additional observations from a re-analysis of the deposited data

How the results depend on the processing

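With quantile normalization and with loess, 1 cathepsin was higher and 2 were lower by 2-fold or more, against 2 and 1 as deposited. Of all genes, 11.1% were higher and 7.98% lower with quantile normalization, and 9.28% and 9.27% with loess. With equal medians 3 were higher and 1 was lower, beside 14.2% and 7.4% of all genes. On the hybridisation controls, and with the median over probe sets, 2 were lower, beside 18.6% and 11.3% of all genes. At a 1.5-fold threshold 4 were higher and 2 lower, beside 18.4% and 23.1% of all genes. At 3-fold 1 was higher and 1 lower, beside 3.13% and 4.71%. The differences between scalings follow from Ctsl, Ctsa and Ctsc, which changed calls between scalings. The cause of the signal trend was not tested. Of 110 member ratios under 11 alternatives, 104 moved by less than the SD between probe sets (0.48), 6 moved more and no ratio past 2-fold changed sign. Of the 11, the filter and the rule without x or s probe sets changed no member ratio at all. Equal medians and the hybridisation controls rescale 1 array by a constant, and moved every member by less than that SD. The 4 floors or pseudocounts hardly moved the bright cathepsins, whose signals lie far above the floor. Much of the 104 was thus set by the choice of alternatives. The median of the 10 genes ranged from 0.01 to 0.77. With 1 array per group no value has a replicate error, and for Ctsf the signal over background limits the size of the difference.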

Other observations

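Where 2 or more probe sets of a gene passed the floor on both arrays, the brightest probe set of a cathepsin usually had the smallest absolute log2 ratio. It did so in 5 of 6 cathepsins, Ctsa being the exception, against 43.5% of 741 such genes among the 1150 brightest and 45.1% of 4465 such genes in all. In Ctsb the brightest probe set differed 1.12-fold and the dimmer ones up to 3.6-fold, and in Ctsc 1.66-fold and 9.84-fold. The dimmest Ctsb probe set, at 1.17-fold, was close to the brightest. In Ctsh (log2 0.37 and 0.46) and Ctsz (0.55 to 0.86) the probe sets lay closer together than the SD of 0.48. The reason was not tested.

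Some markers of other leukocytes that carry cathepsins passed the floor and others did not. Of 10 neutrophil markers 4 were above the floor. Csf3r (5412 and 2270) and Mmp8 (2817 and 1259) were lower by 2-fold or more in elicited cells. S100a8 (3663 and 4675) was within 2-fold, and Camp (112 and 11.1) was lower by at least 1.37-fold. Elane, Mpo and S100a9 stayed at background on both. Of 7 T and NK cell markers 5 were above the floor, with Cd28 2.87-fold higher and Cd3d and Cd3g at least 3.55-fold and 2.34-fold lower. Of 4 eosinophil markers, Siglecf was 3.15-fold higher (322 and 1014) and Il5ra at least 1.51-fold lower, while Prg2 and Epx stayed at background on both. Of the 8 general macrophage markers, Fcgr1 was 2.55-fold higher, Itgam 2.99-fold and Cd14 2.73-fold lower, and the list median was -0.51.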
